A study of Mus musculus with 6 samples.

Results

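The genes described here are 10 components of the elastic fibre system: elastin (Eln), the fibrillins Fbn1 and Fbn2, the microfibril-associated glycoproteins Mfap2 and Mfap5, the fibulins Fbln1 and Fbln5, and the lysyl oxidases Lox, Loxl1 and Loxl2. They were taken by gene symbol from the 14228 genes of the deposited count table, and all 10 were found there. RNA 3′ ends were counted by MARS-seq, a tag-counting method for polyadenylated RNA, in 6 libraries of sorted mouse stomach cells. All mice were triple-transgenic iLgr5;GLI2A animals aged 8 weeks, a line in which an active form of the Hedgehog transcription factor GLI2 can be induced in Lgr5-expressing cells. The 3 CAF (cancer-associated fibroblast) libraries came from mice with gastric cancer, given tamoxifen by gavage over 5 days and then doxycycline chow over 3 weeks, with doxycycline also in sweetened water on the first 3 days. The 3 normal libraries came from control mice that received corn oil alone, so the drugs and the cancer cannot be told apart. CAF libraries 1, 2 and 3 held cells of 1, 2 and 2 mice, and normal libraries 1, 2 and 3 held cells of 1, 1 and 2 mice. Live podoplanin-positive cells were kept after CD31-, CD45- and EpCAM-positive cells had been gated out.

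Elastic fibres are assembled outside the cell. Fibrillins polymerise into microfibrils decorated by microfibril-associated glycoproteins, tropoelastin is deposited on this scaffold with the help of fibulins, and lysyl oxidases oxidise lysines so that elastin and collagen become covalently crosslinked. In the gut wall these fibres are made by fibroblasts and smooth muscle cells, and lysyl oxidases are known for stiffening the matrix of tumours.

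Total counts ranged from 644522 to 6422568 among CAF libraries and from 768420 to 3259644 among normal libraries, and a single read count stood for 0.135 to 1.46 CPM (the usual per-library scaling, with library sizes adjusted by edgeR). A list of gastric gland markers took 0.537% to 0.848% of the counts in CAF libraries, but 17.5%, 13.8% and 3.99% in normal libraries 1, 2 and 3. Fibroblast markers took 1.11% to 3.86% in CAF and 0.468% to 1.63% in normal libraries, lowest in normal library 1, and all 11 listed were detected in both groups. Of the sort markers, Pdpn (podoplanin) was at 27.8 to 121 CPM in CAF and 5.71 to 34.2 CPM in normal libraries. Ptprc (CD45) was at 0 in 3 libraries and Pecam1 (CD31) at 0 in 2, while Epcam was present in all 6, at 13.8 to 233 CPM. The unequal fibroblast share means that fewer fibroblasts and less RNA per fibroblast cannot be told apart. Libraries differ in make-up as well as in depth, so values are given below both as CPM and per fibroblast marker count.

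Of the 10 genes, 9 passed the filter on low counts and were tested, and Fbn2 rose in CAF (edgeR quasi-likelihood test, adjusted p under 0.05 over all genes tested). That is 1 of 9, where 1.1% of the 10148 genes tested were called, 0.897% higher and 0.207% lower in CAF. By edgeR no member was called lower. The log2 fold change was positive for 8 of the 9 and negative for Fbln1, against a positive value in 53.9% of all genes. The median over the 9 was 1.45, beside 0.06 over all genes tested. At an unadjusted p under 0.05, 6 members were higher and 0 lower (7.37% and 7.97% of all genes). In CPM the CAF and normal libraries did not overlap for 4 of 9, Eln, Fbn1, Fbn2 and Loxl2, which all lay higher in CAF, while 10.6% of all genes separated in that direction and 9.35% in the other. DESeq2 called 4 of 9 higher, Eln, Fbn2, Lox and Loxl2, against 3.12% of its genes, and 0 lower (4.17%). In the authors' deposited table the same 4 genes are marked as passing (383 of its 14228 genes, 2.69%, are so marked and higher, and 3.5% are marked and lower), with adjusted p-values of 0.00593 for Eln, 0.000239 for Fbn2, 0.00284 for Lox and 0.0101 for Loxl2.

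**Figure D1:**
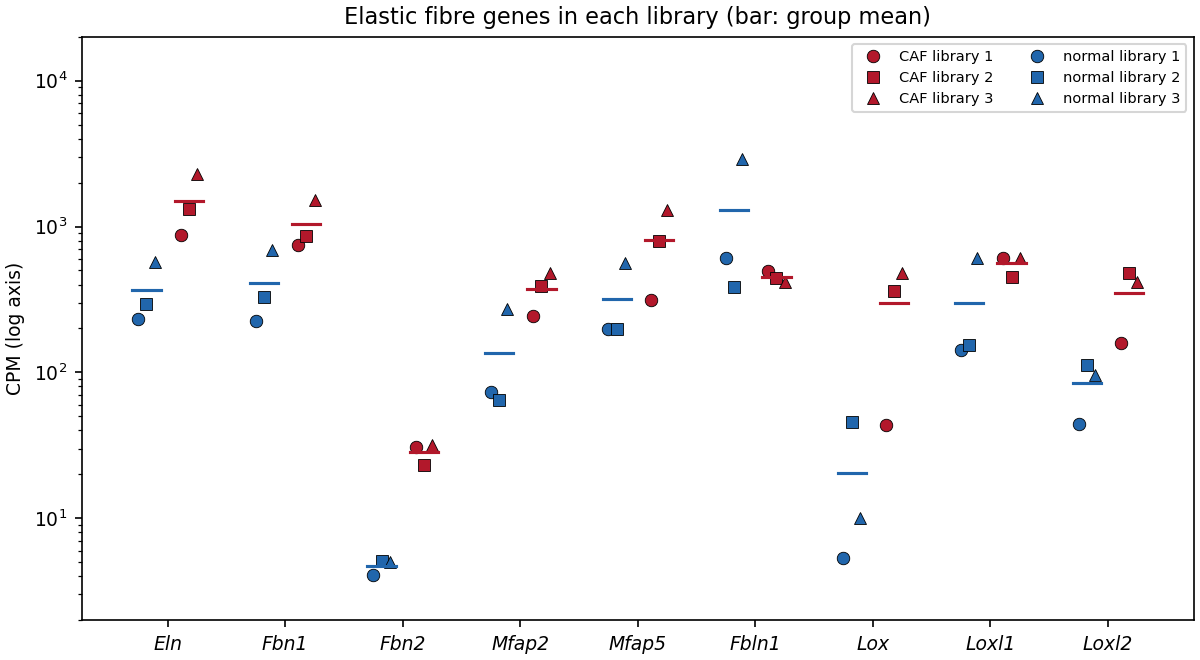
CPM (log axis) of the 9 tested genes in each library, red for CAF and blue for normal, with the group mean as a bar. Fbn2 lies at 23.2 to 31.9 CPM in CAF and 4.08 to 5.07 CPM in normal libraries, while for Loxl1 normal library 3 sits among the CAF libraries and for Fbln1 it stands far above all others.

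Eln encodes tropoelastin, the soluble precursor of the fibre's elastic core (mm10 chromosome 5, 134702593 to 134747323, minus strand). It was at 881, 1315 and 2277 CPM in CAF libraries 1, 2 and 3 and at 231, 293 and 573 CPM in normal libraries 1, 2 and 3. Every CAF library thus lay above every normal library. The group means were 1491 ± 715 and 366 ± 182 CPM (SD, n = 3 each), a log2 fold change of 2.03 ± 0.52 (SE) that did not pass by edgeR (adjusted p = 0.103). With 1 library left out the log2 fold change stayed between 1.60 and 2.45, and Eln passed without normal library 3 (adjusted p = 0.0279 by edgeR). Smooth muscle cells also make elastin. The 7 of 9 smooth muscle markers in the table summed to 940 to 2768 CPM in CAF and 709 to 1483 CPM in normal libraries, and none was at 0 throughout a group. The median log2 fold change of the 7 was 0.91, positive for Actg2 (1.68, groups without overlap, adjusted p = 0.0953 by edgeR), Des, Tagln and Acta2 and negative for Smtn, Cnn1 and Myh11. Only Myh11, the smooth muscle myosin heavy chain, passed, and it fell in CAF (log2 fold change -2.19, adjusted p = 0.0486 by edgeR). The part of these cells in the Eln values was not tested.

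The fibrillins are the long, calcium-binding backbone proteins of microfibrils, Fbn1 the main adult form and Fbn2 the form that dominates in embryonic tissue. Fbn2 had 21, 168 and 236 counts in CAF libraries 1, 2 and 3, or 30.7, 23.2 and 31.9 CPM. In normal libraries 1, 2 and 3 it had 10, 4 and 4 counts, or 4.08, 5.07 and 5.0 CPM. Both groups were narrow and lay far apart, although the normal values rest on very few counts. Fbn2 rose 6.13-fold in CAF (28.6 ± 4.74 against 4.72 ± 0.552 CPM; SD, n = 3 each), or 2.62 ± 0.41 on the log2 scale (SE), with an adjusted p of 0.039 by edgeR. The size of the difference hardly moved when 1 library was left out (log2 fold change 2.47 to 2.76). The call was lost without CAF library 1, 2 or 3 (adjusted p = 0.0713, 0.159 and 0.175 by edgeR) and without normal library 1 or 2 (0.223 and 0.134). It held without normal library 3 (0.0168). Fitting mice per library as a covariate also ended it (0.0646), as did limma-voom (0.0655).

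Fbn1 (chromosome 2, 125300594 to 125507993, minus strand) was at 745, 855 and 1515 CPM in the CAF libraries and at 224, 327 and 688 CPM in the normal ones. The groups did not overlap, but normal library 3, at 688 CPM, came close to CAF library 1. The log2 fold change was 1.33 ± 0.51 (SE) and did not pass (adjusted p = 0.269 by edgeR), except without normal library 3 (log2 fold change 1.86, adjusted p = 0.0426). It was lower, at 0.96, without CAF library 3 and at 0.66 with normal library 3 as the only control. On the log2 scale the difference between groups was thus 1.33 for the adult fibrillin and 2.62 for the embryonic one. The difference between these fold changes was not tested.

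Mfap2 and Mfap5 encode small glycoproteins that bind fibrillin along the microfibril. Mfap2 (chromosome 4, 141010418 to 141015984, plus strand) was at 243, 389 and 483 CPM in the CAF libraries and at 73.9, 64.6 and 271 CPM in the normal libraries. Normal library 3 lay above CAF library 1, so the groups overlapped. Its log2 fold change was 1.45 ± 0.61 (SE), with an adjusted p of 0.308 by edgeR, or 2.36 without normal library 3 (adjusted p = 0.0164). It was lower, at 1.11, without normal library 2 and at 0.52 with normal library 3 as the only control. Mfap5 (chromosome 6, 122505845 to 122529290, plus strand) was at 315, 798 and 1296 CPM in CAF and at 199, 198 and 559 CPM in normal libraries. Here too normal library 3 exceeded CAF library 1. Its log2 fold change was 1.34 ± 0.63 (SE), with an adjusted p of 0.375 by edgeR, or 1.96 without normal library 3 (adjusted p = 0.0985). It was lower, at 0.83, without CAF library 3 and at 0.59 with normal library 3 as the only control.

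The fibulins link microfibrils, elastin and basement membranes. Fbln1 (chromosome 15, 85205949 to 85286535, plus strand) was at 493, 440 and 415 CPM in CAF libraries and at 604, 383 and 2884 CPM in normal libraries 1, 2 and 3. The CAF libraries were nearly level, normal libraries 1 and 2 lay on either side of them, and normal library 3 stood apart. The log2 fold change of -1.52 ± 0.73 (SE) did not pass (adjusted p = 0.385 by edgeR) and was -0.21 without normal library 3. The summed level of markers of adventitial fibroblasts, the cells around vessels, was highest in that same library. The 7 listed, all in the table and none at 0 throughout a group, summed to 5700 CPM there, against 1819 and 1837 CPM in normal libraries 2 and 1 and 1955 to 3276 CPM in CAF. Pi16, Clec3b, Ly6c1 and Ackr3 were highest in normal library 3, but Cd34, Sema3c and Dpp4 in CAF library 3. Their part in the Fbln1 value was not tested. Fbln5, which tethers elastin to cells and is needed for normal elastic fibres in mice, was scarcely detected, with 0, 6 and 4 counts in the CAF libraries and 0 in all normal libraries. A count of 0 over the 3 normal libraries allows up to 0.743 CPM (3 counts over the group, counting error only), which is more than the CAF mean of 0.456 CPM, so no difference was detectable at this depth.

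Mfap2 and Fbln1 had fold changes of opposite sign, neither of them called, and the stretch just upstream of each is shown to let their promoters be compared. The bases from 250 to 51 before the most upstream RefSeq start of each gene are printed 5′ to 3′ on the gene's strand, from RefSeq on GRCm38.p6 (the mm10 assembly). They are chr4:141010174-141010373 for Mfap2 and chr15:85205699-85205898 for Fbln1. Capitals mark GGGCGG (a GC box), CAGAC (a SMAD-type element) and CANNTG (an E-box), searched on both strands.
Mfap2: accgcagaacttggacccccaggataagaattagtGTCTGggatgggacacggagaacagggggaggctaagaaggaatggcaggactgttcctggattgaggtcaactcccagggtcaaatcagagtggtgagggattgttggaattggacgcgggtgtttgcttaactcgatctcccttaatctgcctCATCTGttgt
Fbln1: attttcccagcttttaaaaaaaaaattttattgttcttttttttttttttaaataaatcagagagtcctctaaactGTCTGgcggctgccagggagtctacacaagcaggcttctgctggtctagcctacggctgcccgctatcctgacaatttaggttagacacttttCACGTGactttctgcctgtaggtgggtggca
Both windows held 1 CAGAC and 1 CANNTG match and no GGGCGG, and the matches did not overlap. Among 27025 genes with such a window, 35.8% held CAGAC, 59.0% held CANNTG and 24.6% held GGGCGG, so these short motifs are common. Neither held TATAAA (9.49% of windows), and CCAAT (28.9%) was found once, in Mfap2. The GC content was 51.5% for Mfap2 and 42.0% for Fbln1, beside a median of 51.5%. Fbn2 and Lox were left out of the search for promoter windows. Eln, Mfap5, Loxl1 and Loxl2 had no entry in the RefSeq promoter table. Of the 10 genes, 4 (Fbn1, Mfap2, Fbln1 and Fbln5) gave a window from it.

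The lysyl oxidases are copper-dependent amine oxidases. Lox, the founding member, acts on both collagen and elastin. It had 30, 2638 and 3575 counts in CAF libraries 1, 2 and 3, or 43.9, 364 and 484 CPM, and 13, 36 and 8 counts in normal libraries 1, 2 and 3, or 5.30, 45.6 and 10.0 CPM. CAF libraries 2 and 3 lay far above every normal library, but CAF library 1 lay just below normal library 2. The log2 fold change of 3.95 ± 1.08 (SE), or 15.4-fold, had the widest error of the 9 genes and did not pass (adjusted p = 0.12 by edgeR). It was 5.35 without normal library 2 (adjusted p = 0.147) and 4.47 without CAF library 1 (adjusted p = 0.0982). The lowest value with 1 library left out was 3.39, without normal library 1 (adjusted p = 0.458 by edgeR). With mice per library as covariate it was 3.02 (adjusted p = 0.459 by edgeR).

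Loxl2, which crosslinks basement membrane collagen (chromosome 14, 69609068 to 69695834, plus strand), was at 158, 480 and 419 CPM in the CAF libraries and at 44.5, 111 and 96.3 CPM in the normal libraries. As for Lox, CAF library 1 was the lowest CAF library and normal library 2 the highest normal library, but the groups did not overlap. The log2 fold change was 2.08 ± 0.54 (SE), with an adjusted p of 0.104 by edgeR. Loxl1, which is needed for elastic fibre upkeep in adult mice (chromosome 9, 58287738 to 58313186, minus strand), was at 613, 453 and 609 CPM in CAF and at 142, 153 and 608 CPM in normal libraries. Normal library 3 was level with CAF libraries 1 and 3. Its log2 fold change was 0.89 ± 0.59 (SE), with an adjusted p of 0.558 by edgeR, 1.85 without normal library 3 (adjusted p = 0.0129), and -0.07 when normal library 3 was the only control (adjusted p = 0.948).

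**Figure D2:**
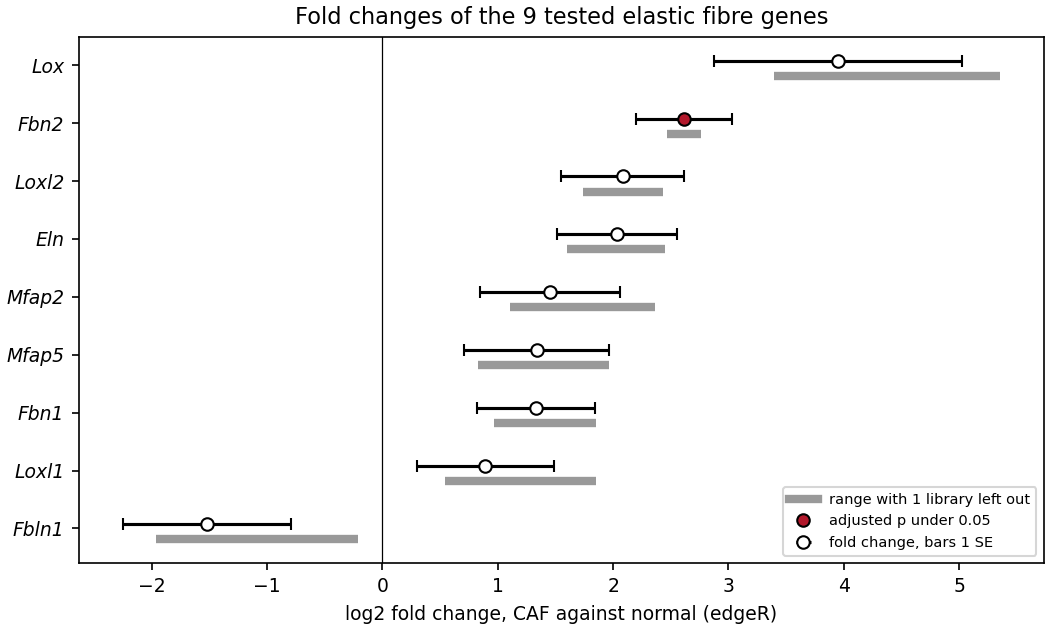
Log2 fold change of CAF against normal by edgeR for the 9 tested genes, with bars of 1 SE, and in grey the lowest to highest value with 1 library left out. Fbn2, filled red, passed at an adjusted p under 0.05, and the range of Fbln1 reaches from -1.96 to -0.21.

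Which normal library was highest divided the members. For 6 of the 9, Eln, Fbn1, Mfap2, Mfap5, Fbln1 and Loxl1, the highest normal value was in normal library 3, the library of 2 mice with the most fibroblast and the least gland RNA among controls. For the other 3, Fbn2, Lox and Loxl2, it was in normal library 2, although the normal values of Fbn2 were nearly level. Within CAF, library 3 was highest for 6 genes (Eln, Fbn1, Fbn2, Mfap2, Mfap5 and Lox), and library 1, the shallowest and lowest in fibroblast markers, was lowest for 6 (Eln, Fbn1, Mfap2, Mfap5, Lox and Loxl2). Without normal library 3, 5 of 9 members were called higher by edgeR, Eln, Fbn1, Fbn2, Mfap2 and Loxl1, against 3.47% of all genes in that fit.

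Together the 10 genes took 0.373%, 0.577% and 0.867% of all counts in CAF libraries 1, 2 and 3 and 0.115%, 0.138% and 0.593% in normal libraries 1, 2 and 3. The widest 95% exact binomial interval was 0.575% to 0.61%, in normal library 3. The mean share was 2.15 times as high in CAF, with normal library 3 above CAF libraries 1 and 2. Per 100 counts of the 11 fibroblast markers the same sum was 33.6, 18.6 and 22.5 in CAF and 24.6, 13.5 and 36.4 in normal libraries. On that scale the ratio of the means was 1.0, and the groups overlapped. The members did not all go the same way in this sum. Fbln1, at 9.71, 3.28 and 18.4 in normal libraries 1, 2 and 3, was lower in the CAF mean. The other 8 tested genes were higher in it, with ratios from 1.15 for Mfap5 to 5.90 for Lox.

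The make-up of the sum also differed between the groups for some members. Fbln1 made up 39.5%, 24.2% and 50.6% of the 10 genes' counts in normal libraries 1, 2 and 3, and 14.0%, 8.6% and 5.51% in CAF libraries 1, 2 and 3. Eln made up 15.1%, 18.5% and 10.1% in normal and 25.0%, 25.7% and 30.2% in CAF libraries. For both genes the groups did not overlap, nor did they for Mfap2 (4.09% to 4.83% in normal and 6.41% to 7.60% in CAF libraries) or Fbn2 (0.0879% to 0.321% and 0.424% to 0.872%). Lox went from 0.347%, 2.89% and 0.176% in normal to 1.25%, 7.11% and 6.42% in CAF libraries, where CAF library 1 lay below normal library 2. Fbn1 overlapped, at 12.1% to 20.7% in normal and 16.7% to 21.1% in CAF libraries, and so did Mfap5 (9.82% to 13.0% and 8.93% to 17.2%) and Loxl1 (9.32% to 10.7% and 8.09% to 17.41%). These shares are given with no test, and a rise in one lowers the rest.

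**Figure D3:**
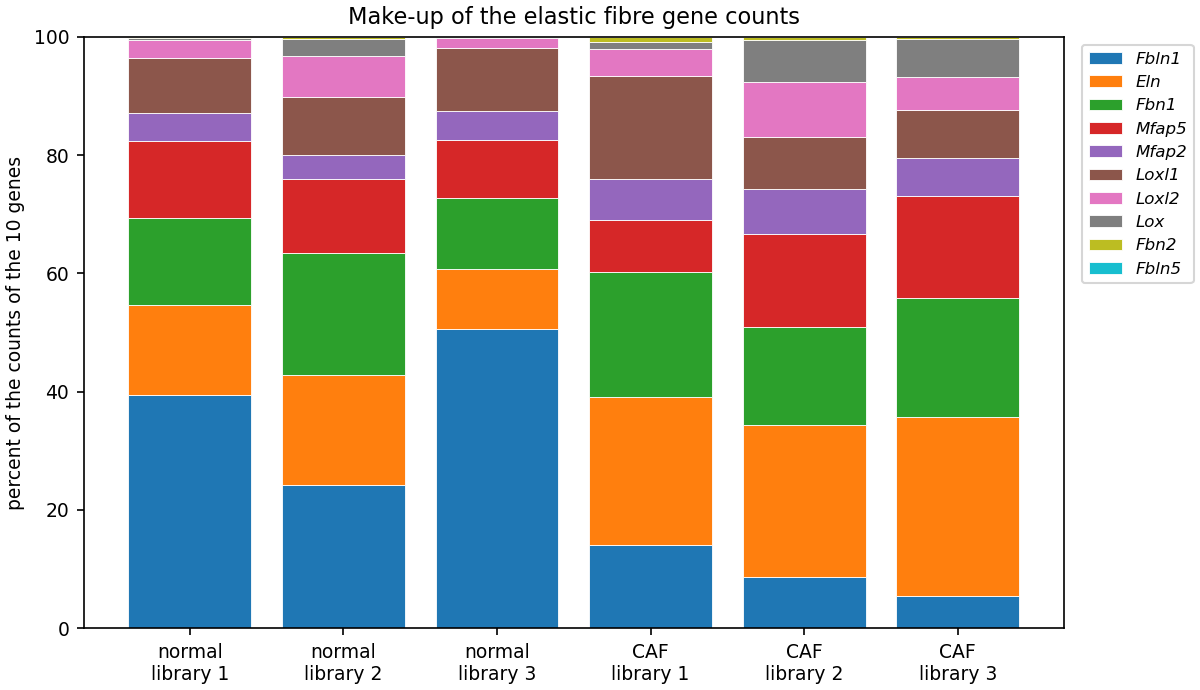
Stacked bars give each gene's percent of the counts of the 10 genes in each library, from 0 to 100. Fbln1 (bottom) takes 24.2% to 50.6% in normal and 5.51% to 14.0% in CAF libraries, and Eln 10.1% to 18.5% and 25.0% to 30.2%.

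Relative to fibroblast markers, 4 of the 9 genes separated the groups with CAF higher: Eln, Fbn2, Lox and Loxl2 (2.13% of all genes did so on this scale, and 16.2% separated with CAF lower). Eln was at 8.39, 4.78 and 6.79 counts per 100 fibroblast marker counts in CAF and at 3.72, 2.51 and 3.66 in normal libraries, a 2.02-fold difference of means. Lox was at 0.418, 1.32 and 1.44 in CAF and 0.0853, 0.391 and 0.0639 in normal libraries, 5.90-fold, so that CAF library 1 came to lie just above normal library 2. Loxl2 was at 1.51, 1.74 and 1.25 against 0.715, 0.955 and 0.615 counts. Fbn1, Mfap2, Mfap5 and Loxl1 overlapped, with ratios of 1.15 to 1.49, and Fbln1 was 4.17-fold lower in the CAF mean with overlap.

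Scaling edgeR to the fibroblast markers moved the median log2 fold change of all genes by -1.03, to -0.97, and 12% of all genes had a positive value. All 8 genes with a positive value kept it, from 0.21 for Mfap5 to 2.59 for Lox, and Fbln1 stood at -2.06. Relative to that median Eln was at 1.98, Fbn2 at 2.61, Lox at 3.55 and Loxl2 at 1.94. Without this scaling their log2 fold changes were 2.03, 2.62, 3.95 and 2.08. Fbn1, Mfap2, Mfap5 and Loxl1 lay 1.17 to 1.53 above the median, and Fbln1 lay below it. Subtracting the median takes the shift out again, so these values are no separate result on the fibroblast scale. By edgeR none of the 9 passed with scaling to fibroblast markers (adjusted p = 0.111 for Lox, 0.254 for Fbln1 and 0.333 for Fbn2). An unadjusted p under 0.05 was reached by 2 of the 9, Lox higher and Fbln1 lower, and by 1804 of all 10148 genes. Leaving the 4 collagens out of the marker list, a choice made after seeing the data, gave a shift of -0.77 and a positive value in 17.8% of all genes, and Lox then passed (log2 fold change 2.98, adjusted p = 0.0386 by edgeR). The fibroblast markers themselves differed in the CAF mean, from a log2 fold change of -0.53 for Col6a1 to 2.62 for Thy1, with 0 of 11 called and a median of 1.09.

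**Figure D4:**
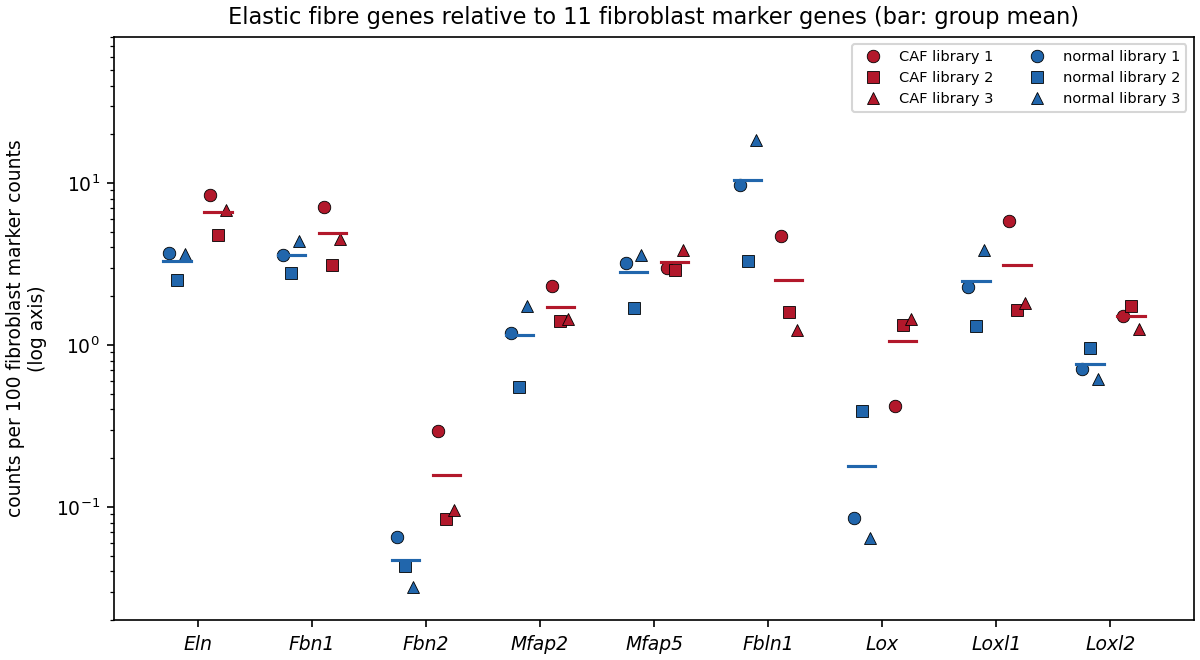
Counts of the 9 tested genes per 100 counts of 11 fibroblast markers (log axis) in each library, with the group mean as a bar. Eln, Fbn2, Lox and Loxl2 separate the groups, Loxl1, Mfap2, Mfap5 and Fbn1 do not, and Fbln1 is highest in normal library 3 at 18.4.

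Other genes of elastic fibre assembly, crosslinking and turnover were taken from a list of 41, of which 39 were in the table and 32 were tested. By edgeR 0 of the 32 passed, and at an unadjusted p under 0.05 there were 5 higher and 1 lower (7.37% and 7.97% of all genes). DESeq2 called 2 of the 38 it tested, Ltbp2 and Mmp9, both higher (3.12% of all genes), and limma-voom called 0. The log2 fold change was positive for 22 and negative for 10, where 53.9% of all genes were positive, with a median of 0.61 beside 0.06 over all genes. Without normal library 3, 36 were tested, of which 11 were called higher and 1 lower, Furin. In that fit 3.47% and 6.57% of all genes were called in those directions. The 12 were Adamtsl2, Bmp1, Ctsk, Efemp2, Emilin1, Fbln2, Ltbp2, Ltbp3, Mfap4, Mmp2, Mmp9 and Furin.

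Among fibre-associated proteins, Fbln2, a fibulin of elastic tissue and basement membranes, was at 1232, 786 and 1175 CPM in CAF and 177, 160 and 658 CPM in normal libraries, without overlap (log2 fold change 1.68, adjusted p = 0.232 by edgeR). Efemp2 (fibulin-4), which brings Lox to the growing elastic fibre, gave a log2 value of 1.44 (adjusted p = 0.379), with normal library 3, at 281 CPM, above CAF libraries 2 and 3. Latent TGF-beta binding proteins attach stored TGF-beta or fibulins to microfibrils, and 0 of the 4 tested passed by edgeR. Ltbp2 was at 45.4, 73.6 and 43.8 CPM in CAF and at 1.63, 1.27 and 16.3 CPM in normal libraries (3.26 ± 0.86 on the log2 scale, SE, with an adjusted p of 0.111 by edgeR). Its normal values rest on 4, 1 and 13 counts. Ltbp4, a partner of fibulin-5, was at 996, 808 and 836 CPM in CAF and 1392, 907 and 5143 CPM in normal libraries (log2 fold change -1.49, adjusted p = 0.334). Like Fbln1, it stood apart in normal library 3, the library with the highest sum of adventitial markers. Cd34, Sema3c and Dpp4 among these markers were highest in CAF library 3, and their part in the Ltbp4 value was not tested.

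ADAMTS-like proteins bind fibrillin microfibrils. Adamtsl2 was at 61.8 to 95.1 CPM in CAF and 4.49 to 45.0 CPM in normal libraries (log2 fold change 2.08, adjusted p = 0.237 by edgeR). Adamtsl5 was at 8.28 to 18.3 CPM in CAF and 16.5 to 75.0 CPM in normal libraries (log2 fold change -1.41, adjusted p = 0.384). Among crosslinking enzymes and their activators, Plod2, a lysyl hydroxylase that prepares collagen for stable crosslinks, gave a log2 value of 1.58 (adjusted p = 0.393). Furin, a protease that trims fibrillin and other precursors, was at 231, 123 and 102.5 CPM in CAF and at 1108, 698 and 101 CPM in normal libraries 1, 2 and 3, in the same order as the gland share of the controls (log2 fold change -2.07, adjusted p = 0.261). With normal library 3 as the only control it was 0.62, and the part of gland cells in it was not tested.

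Of the enzymes that degrade elastin, Mmp9 (gelatinase B) was at 105, 72.2 and 24.1 CPM in CAF and at 1.22, 7.60 and 1.25 CPM in normal libraries. The normal values rest on 3, 6 and 1 counts. The groups did not overlap, and the log2 fold change of 4.50 ± 0.87 (SE) missed the threshold by edgeR (adjusted p = 0.0607). It passed by DESeq2 (6.05e-05) and with scaling to fibroblast markers (log2 fold change 3.88, adjusted p = 0.00641 by edgeR). It did not pass by limma-voom (adjusted p = 0.13) or with mice per library as covariate (adjusted p = 0.0847 by edgeR). With 1 library left out it passed in 1 of 6 fits, without normal library 3 (adjusted p = 0.0482 by edgeR). Mmp9 is also made by neutrophils and macrophages. After the CD45 gate, the 7 of 8 immune markers in the table summed to 126 to 183 CPM in CAF and 30.0 to 313 CPM in normal libraries. Ptprc and Adgre1 were at 0 in CAF library 1, where Mmp9 was highest, and in normal libraries 1 and 3. Itgam was at 1 count in CAF library 1, at 0 in normal libraries 1 and 3, and highest in CAF library 2. Cd68 was highest in normal libraries 1 and 2, at 23.7 and 29.1 CPM, and Lyz2 and Csf1r in normal library 2. Cd74, in contrast, was highest in CAF library 1, at 107 CPM, above the 86.1 CPM of normal library 2. In CAF library 1, the shallowest, 3 counts stood for 4.39 CPM, so a count of 0 there does not exclude a low level. None of the 7 was at 0 throughout a group, and their part in the Mmp9 values was not tested. Ctsk (cathepsin K) gave a log2 value of 1.48 (adjusted p = 0.307).

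**Figure D5:**
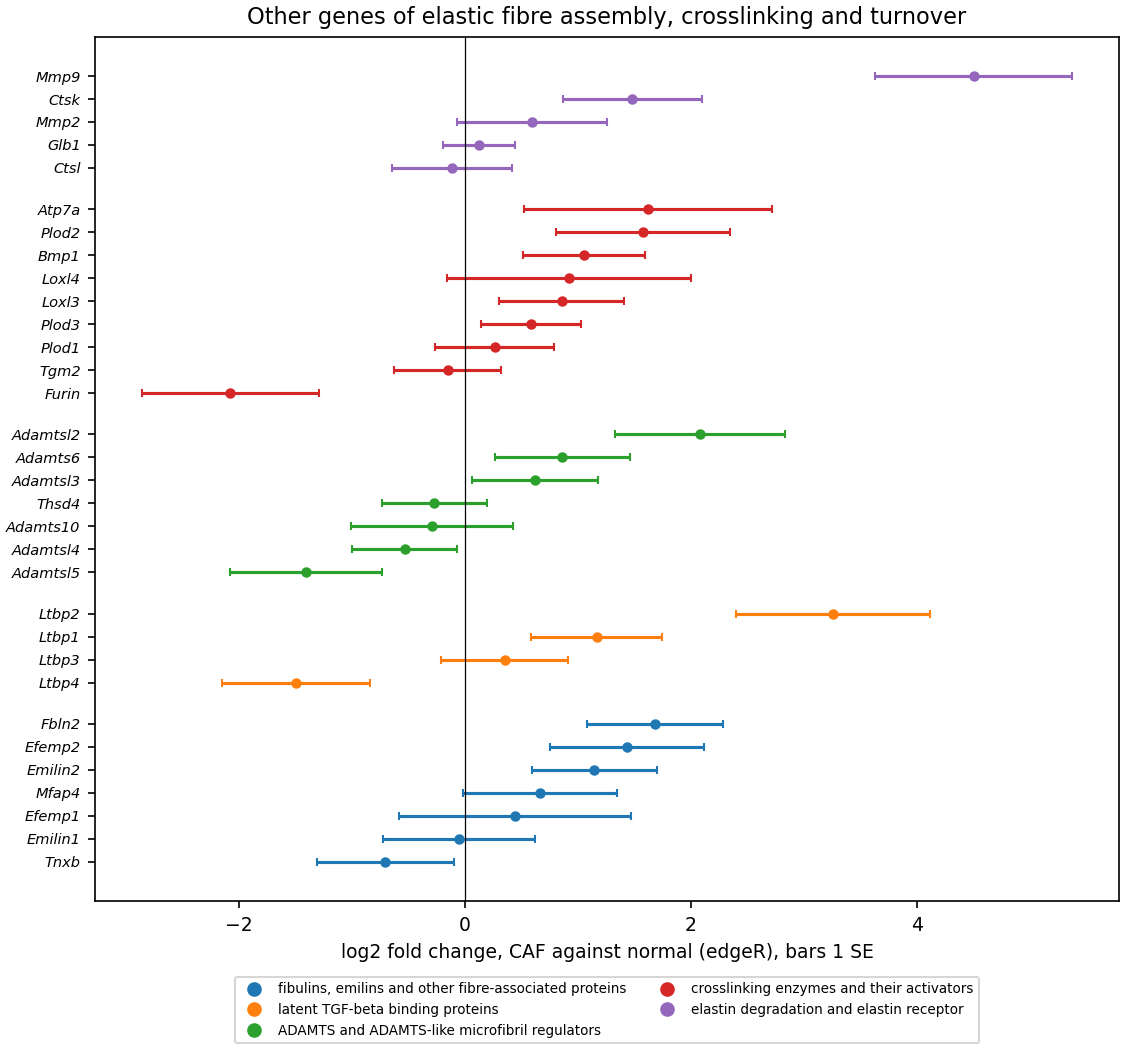
Log2 fold change of CAF against normal by edgeR for the 32 tested genes of the wider elastic fibre list, grouped by role, with bars of 1 SE. None passed by edgeR, and values run from -2.07 for Furin to 4.50 for Mmp9.

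The 5 other genes whose log2 CPM over the 6 libraries was most like that of Fbn2 were Brox, Synpo, Man2a1, Necap1 and Igf2 (Pearson r = 0.991 to 0.995, a description over libraries that share the group difference). Brox was at 38.5 to 40.0 CPM in CAF and 17.95 to 20.3 CPM in normal libraries. Synpo, an actin-associated protein, rose 7.87-fold (adjusted p = 0.0183 by edgeR), and Igf2, a fetal growth factor, rose 67.9-fold (adjusted p = 0.00483). The call of Synpo was lost without CAF library 2 (adjusted p = 0.0763) or normal library 1 or 2 (0.146 and 0.082), and with scaling to fibroblast markers (0.196, or 0.132 without collagens). That of Igf2 was lost without normal library 1 (0.0844). With normal library 3 as the only control neither passed (0.259 for both). Man2a1, Brox and Necap1 did not pass (adjusted p = 0.0692, 0.15 and 0.513 by edgeR).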

How the data were processed

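The authors deposited raw counts per gene symbol, which are the values tested here. Their table also holds a normalized signal (raw count over 1 size factor per library, per the file headers and values), regularized log2 values, and the authors' own log2 fold change and p-values; the signal and the regularized log2 values were not used. Tools listed in the submitters' processing notes are cutadapt, STAR, HTSeq and DESeq2, with the build mm10. The sources used here do not give the annotation counted, the use of strand or the collapsing of molecular identifiers, so reads of antisense partners cannot be told apart.

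Counts were fitted with edgeR 4.0.16 in R 4.3.3 (filterByExpr defaults, trimmed mean of M-values, quasi-likelihood F test of group, Benjamini-Hochberg over 10148 genes, threshold 0.05). Standard errors are approximate (absolute log2 fold change over the root of F). CPM uses the scaled library sizes. DESeq2 1.42.0, limma 3.58.1 (voom) and the other alternatives are in the closing section. The fit was tested on simulated data. Coordinates come from GENCODE (mm10): 5 of the 10 genes overlap another annotated gene, but 0 have a foreign exon within 2000 bases of their 3′ end. By the naming rule the text gives all members, the 2 listed genes of smallest p in each of 5 roles, and the 5 genes most correlated with the member of smallest p (mean of at least 20 CPM). Members and lists were chosen with earlier results of these data known. Intervals and floors cover counting error only, as PCR copies may be included.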

Additional observations from a re-analysis of the deposited data

How the results depend on the processing

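Of all genes, 112 passed by edgeR (91 higher, 21 lower), 935 by DESeq2 and 65 by limma-voom, 559 (97 higher, 462 lower) with scaling to fibroblast markers, 517 (115 higher, 402 lower) with that scaling without collagens, 0 (without normal library 1; 793 at unadjusted p under 0.05) to 1193 (without normal library 3) with 1 library left out, and 0 (1271 at unadjusted p under 0.05) with normal library 3 as the only control. Of the elastic fibre genes, 1 passed by edgeR, 4 by DESeq2 and 0 to 5 with 1 library left out. By limma-voom, with mice per library as covariate and with scaling to fibroblast markers 0 passed. In these fits, in that order, 6, 6 and 2 members had an unadjusted p under 0.05, as did 1967, 1410 and 1804 of all 10148 genes. Of the other listed genes, 0 of 32 tested passed by edgeR, 2 of 38 by DESeq2 and 1 of 39 with no filter on low counts. With scaling to fibroblast markers 1 of 32 passed, and with that scaling without collagens 2 of 32. With 1 library left out 0 to 12 passed, the 12 being of 36 tested without normal library 3. The ratio of the members' mean share of counts was 2.15, or 1.0 over fibroblast marker counts. On the latter scale Fbln1 was lower and every other tested member higher in the CAF mean. Log2 fold changes turned sign with normal library 3 as the only control for Loxl1 (-0.071) and Furin (0.62), and with scaling to fibroblast markers for Necap1 (-0.45, or -0.21 without collagens), where the scaling itself moved the median of all genes by -1.03 (-0.77 without collagens). The other 8 tested members kept their sign in all 17 alternatives. The cause of the other changes was not tested. Fewer libraries leave fewer degrees of freedom, and with 1 control library its spread is assumed to be like that of the CAF libraries. Depth limits Fbln5 and the normal values of Fbn2, Lox, Ltbp2 and Mmp9, among others. No paired analysis was possible because the CAF titles carry mouse numbers and no replicate number shared with the normal titles.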
